A study of Mus musculus with 14 samples.

Results

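Bulk RNA-seq counts of 47 skeletal muscle genes were described across 14 mouse libraries. The 47 genes encode the contractile filaments, the calcium-handling proteins, enzymes of muscle energy supply and a pair of muscle ubiquitin ligases, and all 47 symbols were found among the 24062 genes of the count table. They were selected on their levels in these same libraries, and on the contrast between plexiform neurofibromas (PNs) and controls in particular, so that their levels, fold changes and counts of calls are given as a description and support no statement about them. The control group comprised 3 samples of dorsal root ganglia with nerves (DRG3, DRG4 and DRG5) from Nf1fl/fl mice without the Cre transgene. The slow-growing PN group comprised 5 tumors (1079, 1198A, 1202, 1203 and 1206), and the fast-growing PN group comprised 6 tumors (1053, 1071, 1179, 1191, 1214 and 1216), all from DhhCre;Nf1fl/fl mice. Every mouse carried the floxed Nf1 allele on a mixed C57BL/6, I-129 and FVBN background, none had received a drug, and tissue was taken at 9 months of age by the methods, although a figure legend names 7 months. Growth was defined by MRI over 2 months, as a gain of more than 35 mm3 for fast PNs and a change of less than 5 mm3 for slow PNs. Dhh-Cre removes Nf1 in the Schwann cell lineage, so that muscle fibers of these mice are not themselves the cells in which the allele is deleted. The labels give each library as 1 sample and do not name the sex, litter or dissection batch.

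Skeletal muscle contracts when thin filaments of actin slide over thick filaments of myosin within the sarcomere, the repeating unit that is bounded by Z-discs and held in register at the M-line. An action potential reaches the voltage sensor of the transverse tubule, the ryanodine receptor releases calcium from the sarcoplasmic reticulum, troponin and tropomyosin free the actin filament, and the SERCA pump returns the calcium to its store, where calsequestrin binds it. Fast and slow fibers use different isoforms of many of these proteins, so that a pair of genes often reports on fiber type. Muscle is not a part of nerve or of dorsal root ganglia, although it lies close to both in the body.

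Total counts ranged from 9596773 to 17594164 per library, and levels are given below as CPM, counts scaled to a library size of 1e+06 after TMM correction. At these depths a count of 3 corresponded to between 0.166 and 0.317 CPM, which was taken as the floor of detection, and this limit covers counting error only. The ribosomal RNA gene Rn45s took 3.48% to 18.1% of the counts. Nf1 itself was counted over the whole gene, including exons that remain after recombination and cells outside the Schwann lineage, so that its level (131 to 229 CPM in controls and 224 to 293 CPM in PNs) does not check the genotype labels. Sensory neuron genes were present in 13 of the 14 libraries, as a nerve or ganglion label requires, but fast PN 1191 held a sum of 18.1 CPM over 9 such genes against 1485 CPM or more in every other library. DRG5 was the only library with the atrial light chain Myl7 above 1 CPM (17.4 CPM), and it held the highest level of 7 of 9 cardiac genes, among them Tnnt2 (31.6 CPM), Myl4 (28.8 CPM) and Nppa (9.71 CPM). The other two, Ryr2 and Nppb, were highest in slow PN 1203 (144 and 4.93 CPM), and Ryr2 was lower in DRG5 (33.8 CPM) than in the other controls. In bulk tissue, fewer muscle fibers and less of a transcript per fiber cannot be told apart.

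The 47 genes took 1.502%, 3.55% and 5.53% of all counts in DRG3, DRG4 and DRG5. In slow PNs they took 1.95% in 1079, 1.65% in 1202, 0.616% in 1203, 0.106% in 1206 and 0.0827% in 1198A. In fast PNs the lowest share was 0.128%, the median 0.164% and the highest 1.10%, the last in 1071. Muscle RNA was therefore high in every control and in PNs 1079, 1202 and 1071, intermediate in 1203 and low in the other 7 PNs, and the shares of slow PNs and controls overlapped. DRG5 held the highest level of the 14 libraries for 44 of the 47 genes, and the exceptions were Casq2, Atp2a2 and Myh8. For the same number of genes (44), DRG5 exceeded DRG4 and DRG4 exceeded DRG3. Among PNs, the 3 highest levels belonged to 1079, 1202 and 1071 for 33 of the 47 genes. No control held any of the 47 genes at or below 3 counts, whereas 11 of them were at or below 3 counts in slow PN 1206 and 10 in slow PN 1198A.

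**Figure D1:**
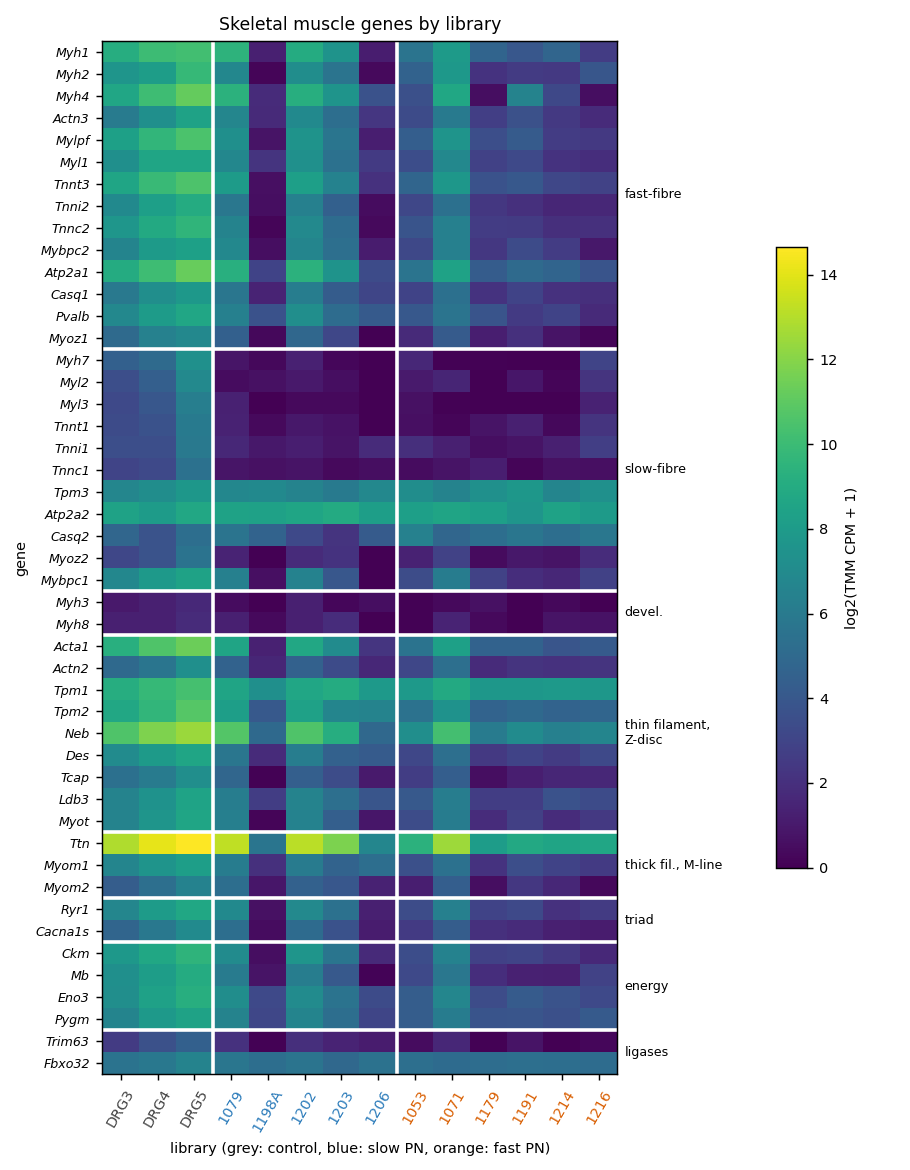
Heat map of the 47 genes (rows, grouped by role) in the 14 libraries (columns), colored by log2(TMM CPM + 1). The controls and PNs 1079, 1202, 1203 and 1071 are bright over most rows, while the slow-fiber rows from Myh7 to Tnnc1 are brighter in every control than in any PN and the rows of Tpm3, Atp2a2 and Fbxo32 keep one color throughout.

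The 14 fast-fiber genes summed to more than the 11 slow-fiber genes per kilobase in the 3 controls and in PNs 1079, 1202, 1203 and 1071, and to less in the other 7 PNs. Mylpf, the regulatory light chain of fast myosin, had the highest mean level of the fast genes per kilobase of its longest transcript (296 CPM per kb over the 14 libraries), followed by Tnnt3, the fast isoform of the troponin subunit that binds tropomyosin (253 CPM per kb). Mylpf was at 323, 798 and 1418 CPM in DRG3, DRG4 and DRG5. In slow PNs it was at 156 CPM in 1079, 0.676 CPM in 1198A, 181 CPM in 1202, 51.3 CPM in 1203 and 1.35 CPM in 1206, and in fast PNs the lowest, median and highest values were 4.30, 13.96 and 188 CPM. Every PN was below every control, and the highest PN for Mylpf was the fast PN 1071. Tnnt3 was at 390, 982 and 1507 CPM in controls, at 266, 0.526, 304, 90.8 and 3.18 CPM in slow PNs 1079, 1198A, 1202, 1203 and 1206, and at 6.38 (lowest), 13.7 (median) and 215 (highest) CPM in fast PNs. Again the groups did not overlap.

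Other fast genes overlapped between PNs and controls, with DRG3 inside the range of the PNs richest in muscle RNA. Myh1, the fast IIx myosin heavy chain, was at 549, 1042 and 1184 CPM in controls and at 699, 1.43, 505, 181 and 1.25 CPM in slow PNs 1079, 1198A, 1202, 1203 and 1206, so that 1079 exceeded DRG3. In fast PNs Myh1 had a lowest level of 5.03 CPM, a median of 25.8 CPM and a highest level of 249 CPM. Atp2a1, the SERCA1 calcium pump of fast fibers, was at 504, 1082 and 2451 CPM in controls and reached 687 CPM in slow PN 1202 and 599 CPM in slow PN 1079, both above DRG3. Every PN was below every control for 9.46% of all genes tested, and for 5 of the 14 fast genes: Mylpf, Tnnt3, Tnni2, Tnnc2 and Myoz1. These are a myosin light chain, the 3 fast troponin subunits and a Z-disc protein that binds calcineurin.

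Pvalb, the calcium buffer parvalbumin of fast fibers, is also known from proprioceptive sensory neurons, and it remained detectable where other fast genes were near the floor. It was at 112, 260 and 403 CPM in controls, at 80.8, 11.7, 149, 34.6 and 16.9 CPM in slow PNs 1079, 1198A, 1202, 1203 and 1206, and at 2.42 (lowest), 9.73 (median) and 48.3 (highest) CPM in fast PNs. In slow PN 1198A, Tnnc2 was at 0.150 CPM, below the floor of that library (0.225 CPM), and Mylpf at 0.676 CPM. Of the 3 genes listed for proprioceptors, Etv1 was at 41.3 to 106 CPM in controls and 119 to 254 CPM in PNs, whereas Ntrk3 (66.7 to 131 and 58.5 to 134 CPM) and Runx3 (6.48 to 19.5 and 4.47 to 22.7 CPM) overlapped between controls and PNs, and their part in the Pvalb level was not tested.

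Most genes of the slow list were either higher in the controls and low in every PN or present throughout, and Mybpc1 was neither. Myh7, the slow beta myosin heavy chain, was at 21.8, 32.0 and 162 CPM in DRG3, DRG4 and DRG5. In slow PNs it was at 0.7595, 0.225, 1.52, 0.182 and 0 CPM in 1079, 1198A, 1202, 1203 and 1206, and in fast PNs it had a lowest level of 0, a median of 0.0706 and a highest level of 6.91 CPM, the last in 1216. Every PN was thus below every control, including the PNs in which fast myosins were as high as in DRG3. Myl2, the slow regulatory light chain, was at 10.3, 20.4 and 117 CPM in controls and at most 3.56 CPM in any PN. Myl3, the slow essential light chain, was at 8.55, 14.8 and 75.6 CPM in controls and at most 1.68 CPM in any PN. The slow troponin genes gave the same picture. Tnnt1 was at 9.07, 11.7 and 61.1 CPM in controls and at most 3.62 CPM in PNs, Tnni1 at 10.4, 10.4 and 58.5 CPM against at most 5.64 CPM, and Tnnc1 at 7.17, 8.50 and 42.9 CPM against at most 1.32 CPM. Slow PN 1206 held no count of 8 of the 47 genes, among them Myh7, Myl2, Myl3 and Tnnt1, which allows up to 0.289 CPM of each.

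Myoz2, a Z-disc protein of slow fibers and heart, was at 7.60, 12.3 and 46.5 CPM in controls and reached 6.39 CPM in fast PN 1071. Mybpc1, named for slow myosin-binding protein C but known also from fast fibers, followed the fast genes: it was at 110, 232 and 339 CPM in controls, at 83.8, 0.526, 89.2, 14.96 and 0 CPM in slow PNs 1079, 1198A, 1202, 1203 and 1206, and at 2.07 (lowest), 6.20 (median) and 70.3 (highest) CPM in fast PNs. Its highest PN levels were in 1079, 1202 and 1071, as for the fast genes.

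The other 3 genes of the slow list overlapped between PNs and controls, although Tpm3 had the same order as muscle RNA among the controls. Atp2a2, the SERCA2 pump that slow muscle shares with heart, neurons and most other cells, had the highest mean level per kilobase of the slow list (58.7 CPM per kb). It was at 343, 261 and 439 CPM in controls, at 343, 329, 389, 493 and 291 CPM in slow PNs 1079, 1198A, 1202, 1203 and 1206, and at 195 (lowest), 301 (median) and 380 (highest) CPM in fast PNs. Tpm3, a slow tropomyosin gene with widely expressed non-muscle isoforms, was at 105, 146 and 213 CPM in controls, at 107, 122, 93.2, 62.1 and 113 CPM in the slow PNs in the same order, and at 92.6 (lowest), 152 (median) and 211 (highest) CPM in fast PNs. Casq2, the calsequestrin of slow fibers and heart, was at 27.2, 12.7 and 38.3 CPM in controls and at 49.1, 24.7, 8.22, 3.56 and 17.3 CPM in the slow PNs. Its fast PN levels were 27.1 (lowest), 45.7 (median) and 86.3 (highest) CPM, so that fast PN 1053 held the highest Casq2 level of all 14 libraries while its Casq1 level was 6.64 CPM. All 3 genes overlapped between every pair of groups.

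The adult myosin heavy chains allowed fiber type to be compared within each library. Myh2, Myh1 and Myh4 encode the fast IIa, IIx and IIb chains and lie side by side on chromosome 11, between 67171027 and 67260446 of the plus strand (mm10), whereas Myh7 lies on chromosome 14 (54970684 to 54994626, minus strand) beside the cardiac gene Myh6. Shares were taken of reads scaled by transcript length over these 4 genes. In DRG3, DRG4 and DRG5, Myh4 took 34.4%, 45.1% and 51.5%, Myh1 took 46.8%, 42.0% and 25.6%, Myh2 took 16.9%, 11.6% and 19.5%, and Myh7 took 1.81%, 1.26% and 3.41%. Of the 4 PNs with the most reads on these genes (4558 to 19666), slow PNs 1079, 1202 and 1203 had Myh4 shares of 46.0%, 47.0% and 45.2% and Myh1 shares of 46.6%, 41.1% and 43.3%. Fast PN 1071 had 47.7% of Myh4, 27.8% of Myh1 and 24.4% of Myh2. The Myh7 share of unscaled reads in these 4 PNs was 0.0508% (95% exact binomial interval 0.0244% to 0.0935%) in 1079, 0.125% (0.0697% to 0.205%) in 1202, 0.0439% (0.00531% to 0.158%) in 1203 and 0.00763% (0.000193% to 0.0425%) in 1071. All 4 intervals lay below those of the controls, of which the lowest was 1.29% (1.16% to 1.44%) in DRG4. These intervals cover counting error only, and each library is a single sample. The genes were chosen on the contrast of PNs and controls, and the 4 PNs on their reads on these genes. Nothing is therefore read from the separation of the intervals.

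PNs with less muscle RNA differed widely from each other in their myosins. Myh4 made up 82.2% in fast PN 1191 (1466 reads) and 88.5% in slow PN 1206 (138 reads), whereas Myh1 made up 86.4% in fast PN 1179 (404 reads) and 67.7% in fast PN 1214 (519 reads), and 57.3% in fast PN 1053 (1553 reads). In slow PN 1198A (57 reads), Myh4 made up 58.2% and Myh7 5.11%. The 95% exact interval of its unscaled Myh7 share was 1.10% to 14.6%. Myh7 made up 2.39% in fast PN 1053. Fast PN 1216 (392 reads) was the only library in which Myh2 was the largest share (53.1%), and Myh7 made up 25.8% of its reads after length scaling. The 95% exact interval of its unscaled Myh7 share was 22.0% to 30.9%, above the interval of every other library. Fast PN 1216 also held the highest PN levels of Myl2 (3.56 CPM), Myl3 (1.68 CPM), Tnnt1 (3.62 CPM) and Tnni1 (5.64 CPM), while its Myh4 level was 0.470 CPM. The coding sequences of Myh1, Myh2 and Myh4 are closely alike, so that reads may have been shared or dropped between them, and Myh1 (Myhas), Myh2 (9430073C21Rik) and Myh7 (Mhrt and others) are overlapped by annotated exons of the opposite strand. Other genes described here have such overlaps too, among them Atp2a1 (Rabep2), Tnnc2 (Ube2c), Myl2 (Ccdc63), Myl3 (Pth1r), Mb (Apol6) and Myom1 (Myl12a). The strand setting of the counting is not given in the sources used here.

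**Figure D2:**
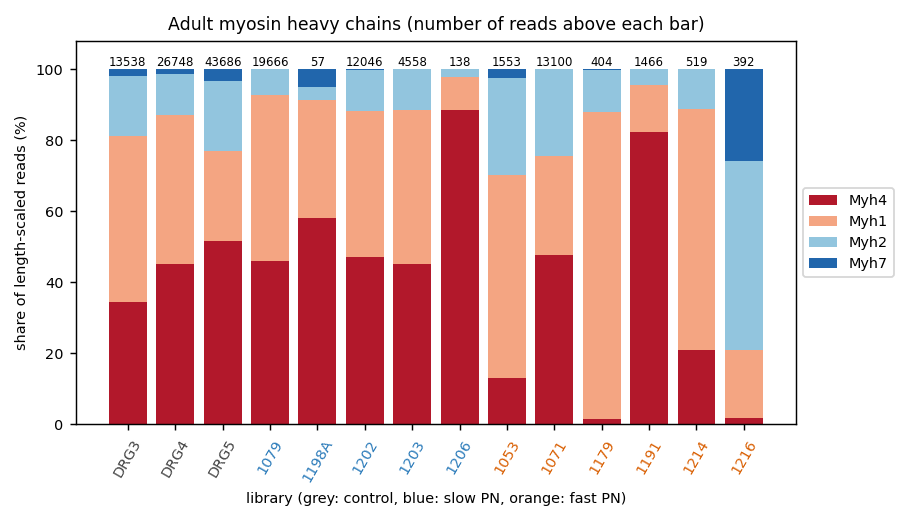
Stacked bars of the shares of length-scaled reads on Myh4, Myh1, Myh2 and Myh7 in each of the 14 libraries, in percent, with the number of reads on the 4 genes above each bar. Myh7 forms a visible band in the controls (1.26% to 3.41%) and a wide one in fast PN 1216 (25.8%), and is not visible in 1079, 1202, 1203 or 1071. It takes 5.11% in slow PN 1198A (57 reads) and 2.39% in fast PN 1053.

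Summed over genes, the fast list gave 1918, 4591 and 7556 CPM per kb in DRG3, DRG4 and DRG5. The log2 ratio of the fast sum to the sum of all 11 slow genes was 3.69 ± 0.48 (SD, n = 3) in controls, 0.93 ± 2.75 (n = 5) in slow PNs and -0.37 ± 1.77 (n = 6) in fast PNs. With 1 library left out it ran from 0.28 (without 1202) to 1.78 (without 1198A) in slow PNs and from -1.03 (without 1071) to -0.00325 (without 1216) in fast PNs. The sign in PNs depended on the measure. Without length scaling the mean ratio was -0.21 in slow PNs and -1.29 in fast PNs. As a difference of mean log2 levels it was 2.13 in slow PNs and 0.82 in fast PNs. The 11-gene slow sum consisted in most PNs of Atp2a2, Tpm3 and Casq2. Without these 3 genes, a choice made after their levels were seen, the slow sum of the 8 remaining genes was 77.2, 133 and 475 CPM per kb in controls and 1.83 to 27.9 CPM per kb in PNs, with no overlap. Mybpc1, which followed the fast genes, made up 28.1, 59.3 and 86.5 CPM per kb of this sum in the controls and most of it in 1079 (21.4 of 27.5), 1202 (22.7 of 27.9), 1203 (3.81 of 7.32) and 1071 (17.9 of 24.5). On this basis the fast sum was 24.8, 34.5 and 15.9 times the slow sum in DRG3, DRG4 and DRG5. It was 49.6, 57.9 and 62.9 times the slow sum in slow PNs 1079, 1202 and 1203 and 44.4 times in fast PN 1071, all above the controls. The remaining 7 PNs lay between 2.06 (1216) and 25.7 (1191), and their slow sums rested on 31 to 457 reads. Those of 1079, 1202, 1203 and 1071 rested on 1219, 960, 229 and 1191 reads. In log2 units the ratio was 4.58 ± 0.56 (n = 3) in controls, 5.01 ± 1.19 (n = 5) in slow PNs and 3.93 ± 1.51 (n = 6) in fast PNs, so that the group means lay within the spread between libraries.

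**Figure D3:**
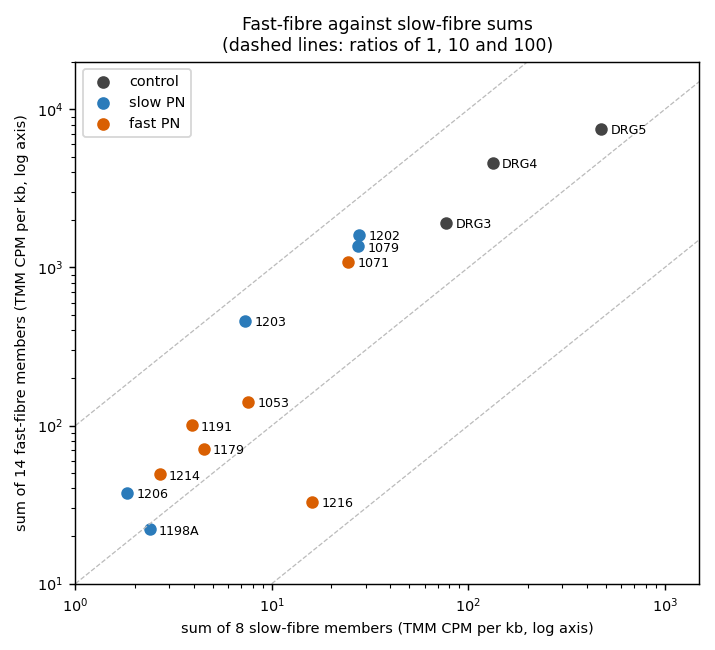
Sum of the 14 fast-fiber genes against the sum of 8 slow-fiber genes in each library, both in TMM CPM per kb on log axes, with dashed lines at ratios of 1, 10 and 100. The slow sum leaves out Tpm3, Atp2a2 and Casq2, a choice made after their levels were seen and one that favors a separation. The controls sit at the upper right with slow sums of 77.2 to 475, PNs 1079, 1202, 1203 and 1071 sit above the line of the controls, and fast PN 1216 sits apart near a ratio of 2.06.

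The isoform pairs were compared per kilobase in the controls and in the 4 PNs with most muscle RNA, in the order 1079, 1202, 1203 and 1071. Tnni2 exceeded Tnni1 by 28.8, 71.7 and 21.2 times in DRG3, DRG4 and DRG5, and by 63.6, 150, 71.9 and 70.0 times in these PNs, so that the ranges overlapped. Mylpf exceeded Myl2 by 14.003 to 45.4 times in controls and by 477, 207, 130 and 115 times in these PNs. Tnnt3 exceeded Tnnt1 by 24.2 to 82.2 times in controls and by 164, 326 and 140 times in 1079, 1202 and 1203. Both of these ratios were above every control in those of the 4 PNs in which they could be formed. The 4 PNs were chosen on their muscle RNA, so that these ratios do not describe PNs as a group. In the other PNs, no formed ratio of these pairs was above the control range. Mylpf to Myl2 was 1.31 in 1198A, 21.7 in 1053 and 24.5 in 1191, and it was below every control in 1216. Tnnt3 to Tnnt1 was 1.72 in 1198A, 51.5 in 1053, 16.0 in 1179, 10.6 in 1191 and 1.73 in 1216. Tnnc2 exceeded Tnnc1 by 18.5 to 58.1 times in controls and by 128, 174 and 125 times in 1079, 1202 and 1071. Myh4 exceeded Myh7 by 15.1 to 35.9 times in controls and by 931 and 389 times in 1079 and 1202, and Myl1 exceeded Myl3 by 5.39 to 27.0 times in controls and by 75.4 times in 1079. The Z-disc pairs did not separate the 4 PNs with most muscle RNA from the controls. The ratio of Actn3 to Actn2 was 2.24 to 3.19 in controls and 4.78, 5.63, 4.34 and 1.66 in these PNs, with 1071 below every control. The ratio of Myoz1 to Myoz2 was 4.48 to 13.2 in controls and 23.0, 21.7, 4.25 and 5.02 in these PNs. For the myosin-binding proteins the ratio of Mybpc2 to Mybpc1 was 0.936 to 1.16 in controls and 1.48, 1.20, 2.87 and 1.28 in these PNs. The pairs of Atp2a2, Casq2 and Tpm3, the slow genes present in all libraries, mostly lay within or below the control range. Atp2a1 exceeded Atp2a2 by 2.40, 6.76 and 9.11 times in controls, and the ratio was 2.85, 2.88, 0.5975 and 1.49 in these PNs. Casq1 exceeded Casq2 by 3.07, 16.5 and 8.05 times in controls and by 1.51, 12.1, 7.06 and 2.08 times in these PNs, whereas Casq1 was at 0.0743 of Casq2 in fast PN 1216 and at 0.106 in fast PN 1053. The ratio of Tpm1 to Tpm3 was 4.28 to 5.06 in controls and 2.85, 3.59, 6.74 and 4.14 in these PNs, with 1203 above every control. Ratios were not formed where the slow partner had 3 counts or fewer. Low counts remained in those formed: Myl2 had 5, 10, 5 and 28 counts in 1079, 1202, 1203 and 1071, so that the size of its ratios is uncertain.

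The sequence before the start sites of 4 genes is shown because each stands for a pattern above: Acta1 and Myh4 for genes that followed muscle content in controls and PNs, Myh7 for genes low in every PN, and Casq2 for a gene that followed neither. RefSeq windows of 250 bases before a start (GRCm38.p6) were found for 37 of the 47 genes, in 45 windows. Each window is printed 5' to 3' on the strand of the gene, and capitals mark E-boxes (CANNTG, the site of MyoD family factors), MEF2 sites, CArG boxes (the site of serum response factor), all searched on both strands, and the letters TATAAA, searched on the strand of the gene.
Acta1: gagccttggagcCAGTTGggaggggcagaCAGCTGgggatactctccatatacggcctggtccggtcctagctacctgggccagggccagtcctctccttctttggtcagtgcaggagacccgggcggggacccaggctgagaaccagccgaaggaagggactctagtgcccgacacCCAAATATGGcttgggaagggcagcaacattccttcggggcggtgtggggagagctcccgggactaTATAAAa
Myh4: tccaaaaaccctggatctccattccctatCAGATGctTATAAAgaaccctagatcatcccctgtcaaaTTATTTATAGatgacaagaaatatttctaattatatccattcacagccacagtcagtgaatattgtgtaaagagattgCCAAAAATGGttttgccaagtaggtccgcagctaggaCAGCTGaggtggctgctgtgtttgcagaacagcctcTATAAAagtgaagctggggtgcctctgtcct
Myh7: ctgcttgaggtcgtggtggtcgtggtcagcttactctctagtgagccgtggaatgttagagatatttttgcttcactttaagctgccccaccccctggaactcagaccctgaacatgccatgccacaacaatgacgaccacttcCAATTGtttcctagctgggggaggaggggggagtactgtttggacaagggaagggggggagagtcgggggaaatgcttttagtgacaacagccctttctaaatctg
Casq2: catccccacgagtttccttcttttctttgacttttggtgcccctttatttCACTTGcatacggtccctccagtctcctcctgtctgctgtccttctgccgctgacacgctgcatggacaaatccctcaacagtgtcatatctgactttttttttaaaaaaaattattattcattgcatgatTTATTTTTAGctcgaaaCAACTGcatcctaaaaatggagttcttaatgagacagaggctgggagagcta
Acta1 is from chr8:123894776-123895025 (minus strand) and holds 2 E-boxes, 1 CArG box and 1 TATAAA. Myh4 is from chr11:67237562-67237811 (plus strand) and holds 2 E-boxes, 1 MEF2 site, 1 CArG box and 2 TATAAA. Myh7 is from chr14:54994627-54994876 (minus strand), the window before its upstream start, and holds 1 E-box, and the overlapping window of a second start (chr14:54994550-54994799) holds 2. Casq2 is from chr3:102086165-102086414 (plus strand) and holds 2 E-boxes and 1 MEF2 site. The window of Ckm, a gene that also followed muscle content, was searched too and is not printed. It holds 1 E-box and no MEF2 site, CArG box or TATAAA, so that the printed windows do not stand for every gene of a pattern. No capitals of different motifs overlapped in these windows. Over all 45 windows of the 47 genes, an E-box was found in 39 (86.7%, against 66.2% of all 32851 windows of the table), a MEF2 site in 7 (15.6% against 2.92%), a CArG box in 6 (13.3% against 1.47%) and TATAAA in 6 (13.3% against 7.59%). A match describes the letters alone, and windows of 1 gene overlap each other.

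Of the 9 genes of the thin filament and Z-disc, 8 had their 3 highest PN levels in 1079, 1202 and 1071, as the fast genes did, and the exception was Tpm1. Acta1, the skeletal alpha-actin, had the highest mean level per kilobase of all 47 genes (305 CPM per kb). It was at 598, 1589 and 2596 CPM in DRG3, DRG4 and DRG5, at 368, 1.502, 438, 135 and 3.76 CPM in slow PNs 1079, 1198A, 1202, 1203 and 1206, and at 13.7 (lowest), 23.2 (median) and 320 (highest) CPM in fast PNs. Every PN was below every control. Tpm1, a tropomyosin with both muscle and non-muscle isoforms, was at 549, 897 and 1302 CPM in controls, at 371, 153, 407, 510 and 236 CPM in the slow PNs in the same order, and at 210 (lowest), 221 (median) and 467 (highest) CPM in fast PNs. Its highest PN level was in 1203, and its lowest level in any PN was 153 CPM, against 1.502 CPM for Acta1. Nebulin (Neb), the ruler of the thin filament, ranged from 1586 to 5519 CPM in controls and from 29.5 to 1680 CPM in PNs. The other genes were chosen for naming after their values were seen: Tpm2 was at 436 to 1785 CPM in controls and 16.2 to 328 CPM in PNs, the intermediate filament gene Des at 134 to 383 against 2.55 to 72.3 CPM, the titin cap Tcap at 41.3 to 151 against 0.0751 to 27.6 CPM, Ldb3 at 92.8 to 360 against 5.22 to 91.4 CPM, and myotilin (Myot) at 93.6 to 393.5 against 0.150 to 88.6 CPM. Actn2, the alpha-actinin of all fibers, was at 31.7 to 155 CPM in controls and 1.95 to 39.8 CPM in PNs, and fast PN 1071 exceeded DRG3.

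Slow PN 1206, in which most of the 47 genes were low, kept higher levels of a few of them. It held 91.7 CPM of Tpm2, 37.8 CPM of Myom1 and 17.3 CPM of Des, against 16.2, 3.08 and 2.55 CPM in slow PN 1198A. Smooth muscle genes were high in the same library: its sum over 12 smooth muscle and pericyte genes was 1600 CPM, with Acta2 at 478 CPM and Myh11 at 281 CPM, against sums of 986 to 1262 CPM in controls and 261 to 431 CPM in the other 10 PNs. The part of smooth muscle in the levels of Tpm2 and Des was not tested. Exons of Myl12a overlap those of Myom1 on the opposite strand, and their part in the Myom1 level was not tested either.

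Of the thick filament and M-line genes, Ttn, the giant spring that spans from the Z-disc to the M-line, had by far the largest counts. It took 0.721%, 1.76% and 2.53% of all counts in DRG3, DRG4 and DRG5, and 1.10% in slow PN 1079. Its level was 7720, 17246 and 25603 CPM in controls, 9822, 50.4, 8971, 3487 and 105 CPM in slow PNs 1079, 1198A, 1202, 1203 and 1206, and 272 (lowest), 427 (median) and 5704 (highest) CPM in fast PNs. The longest transcript of Ttn is 106824 bases, and per kilobase its mean level (54.1 CPM per kb) was close to that of Myh1 (53.2 CPM per kb) and Neb (51.8 CPM per kb). Slow PNs 1079 and 1202 exceeded DRG3. Myom1, which crosslinks myosin at the M-line, was at 98.4, 187 and 296 CPM in controls, at 71.2, 3.08, 66.4, 24.0 and 37.8 CPM in the slow PNs in the same order, and at 3.51 (lowest), 8.51 (median) and 42.85 (highest) CPM in fast PNs, without overlap. Myom2 was at 18.7 to 88.3 CPM in controls and 0.269 to 37.6 CPM in PNs, with overlap.

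The triad, where the transverse tubule meets the sarcoplasmic reticulum, was represented by Ryr1 and Cacna1s. Ryr1, the calcium release channel, was at 103, 261 and 424 CPM in controls, at 125, 0.601, 116, 42.6 and 1.45 CPM in slow PNs 1079, 1198A, 1202, 1203 and 1206, and at 3.33 (lowest), 7.56 (median) and 83.5 (highest) CPM in fast PNs. Cacna1s, the pore of the voltage sensor, was at 26.1, 58.4 and 128 CPM in controls, at 38.1, 0.376, 34.3, 11.8 and 1.16 CPM in the slow PNs, and at 1.14 (lowest), 2.75 (median) and 18.8 (highest) CPM in fast PNs. For both genes, slow PNs 1079 and 1202 exceeded DRG3 and every fast PN was below every control. Casq1, the calcium-binding protein of the fast reticulum, ranged from 60.3 to 223 CPM in controls and from 1.80 to 71.8 CPM in PNs.

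Genes of energy supply followed the same order. Mb, the oxygen carrier myoglobin, was at 155, 284 and 514 CPM in controls, at 66.6, 0.676, 74.0, 16.3 and 0.0964 CPM in slow PNs 1079, 1198A, 1202, 1203 and 1206, and at 1.48 (lowest), 4.58 (median) and 55.6 (highest) CPM in fast PNs. Eno3, the muscle enolase of glycolysis, was at 149, 327 and 579 CPM in controls, at 142, 8.49, 134, 47.2 and 9.25 CPM in the slow PNs, and at 8.26 (lowest), 14.9 (median) and 103 (highest) CPM in fast PNs. Neither gene overlapped between PNs and controls, although Eno3 in slow PN 1079 came close to DRG3. Ckm, the muscle creatine kinase, ranged from 224 to 732 CPM in controls and from 0.451 to 200 CPM in PNs without overlap, and Pygm, the muscle glycogen phosphorylase, from 94.7 to 350 CPM and from 7.23 to 96.5 CPM with overlap.

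The ubiquitin ligases of muscle atrophy differed from each other. Trim63 (MuRF1) was at 4.75, 11.3 and 21.3 CPM in controls, at 3.27, 0.0751, 2.94, 1.73 and 1.16 CPM in slow PNs 1079, 1198A, 1202, 1203 and 1206, and at 0 (lowest), 0.294 (median) and 2.04 (highest) CPM in fast PNs, without overlap. Fbxo32 (atrogin-1) was at 46.5, 57.0 and 93.7 CPM in controls, at 52.3, 37.6, 47.8, 29.3 and 44.2 CPM in the slow PNs, and at 34.0 (lowest), 37.9 (median) and 40.0 (highest) CPM in fast PNs. Fbxo32 was therefore present in PNs that held almost no Trim63. The developmental myosins were low throughout. Myh3, the embryonic chain, was at 1.04, 1.48 and 2.22 CPM in controls and at most 1.42 CPM in PNs. Myh8, the perinatal chain, was at 1.47, 1.48 and 2.43 CPM in controls and reached 2.65 CPM in slow PN 1203, its highest level in any library.

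In the fit of 11 PNs against 3 controls, 46 of the 47 genes had a log2 fold change below 0 (median -2.92, against a median of 0.10 over all genes tested), and all 47 passed the filter on low counts. At an edgeR Benjamini-Hochberg adjusted p under 0.05 across all 16283 genes, 28 of the 47 were called lower and none higher. Over all genes 13.4% were called lower and 12.9% higher, and nothing is read from the members' count, since this contrast chose them. Called genes comprised 7 of the 14 fast genes, 7 of the 11 slow genes, 7 of the 9 thin filament and Z-disc genes, 1 of the 3 thick filament and M-line genes, none of the 2 triad genes, all 4 energy genes, both ligases and neither developmental myosin. The 3 smallest log2 fold changes were -6.27 (SE 0.95) for Myl3, -6.01 (SE 1.07) for Myh7 and -5.73 (SE 0.82) for Myl2. The 3 largest were 0.48 (SE 0.68) for Casq2, -0.08 (SE 0.22) for Atp2a2 and -0.32 (SE 0.29) for Tpm3, none of them called. With 1 library left out, Myl3 lay between -6.811 and -4.785, Myh7 between -7.12 and -4.601, and Myl2 between -6.226 and -4.051. Every PN was below every control for 25 of the 47 genes, against 9.46% of all genes tested. The count of calls rested on the controls with most muscle RNA: it was 8 without DRG5, 18 without DRG4, and 37 without slow PN 1079 or without slow PN 1202. The 8 genes called without DRG5 were Myh7, Myl2, Myl3, Tnnt1, Tnni1, Tnnc1, Tpm1 and Des, and these 8 were called whichever library was left out. Of them, Myl3 and Tnnc1 passed the filter on low counts through the controls, where they were high. Myh7 and Tnnt1 did not pass it between fast and slow PNs. Nothing is read from the stability of these calls, since this contrast chose the members.

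**Figure D4:**
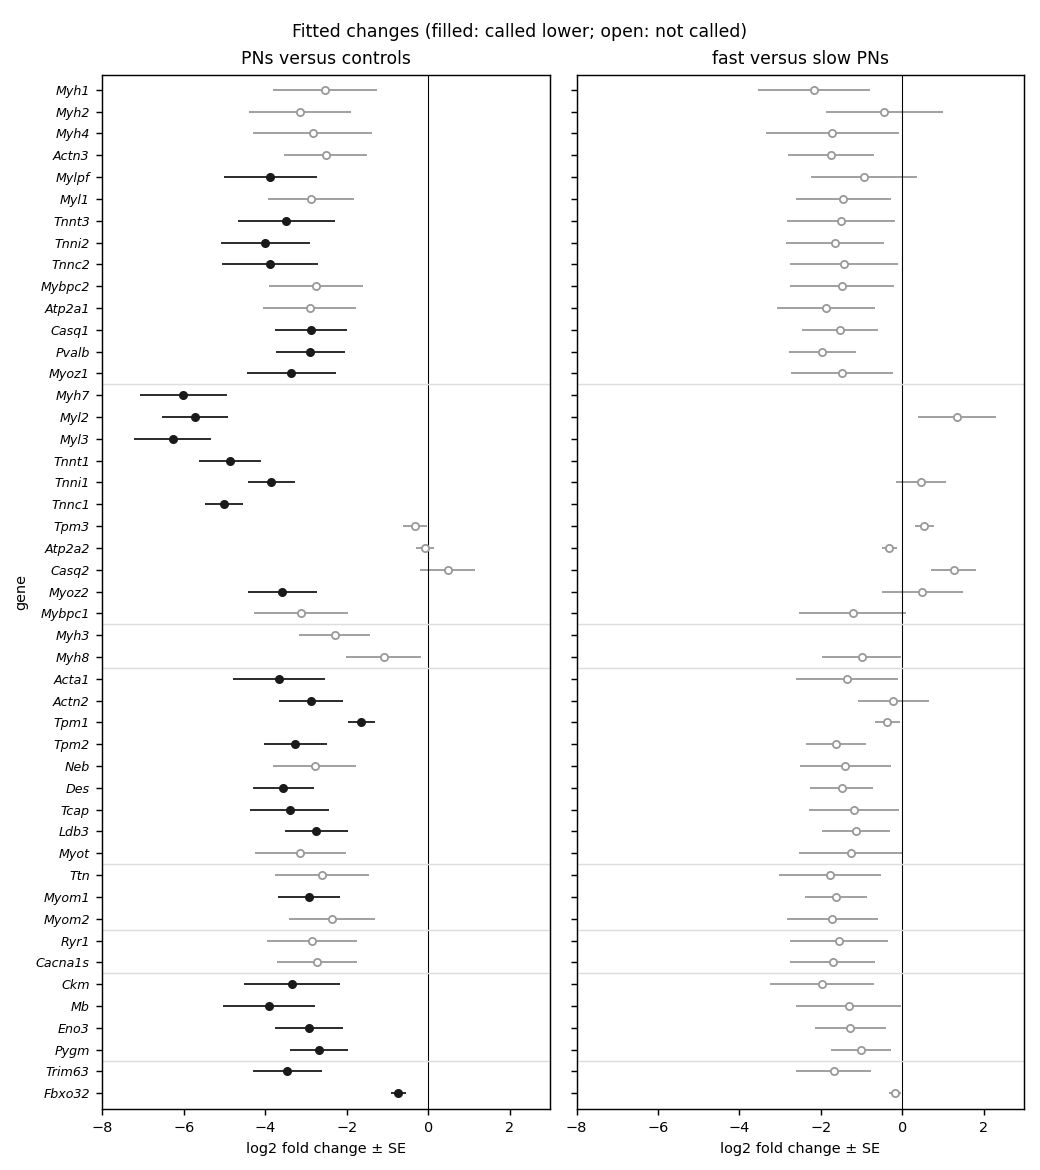
Fitted log2 fold changes of the 47 genes with their standard errors, for 11 PNs against 3 controls (left) and 6 fast against 5 slow PNs (right), with filled points for genes called lower and open points for the rest. On the left the slow-fiber genes Myl3 (-6.27), Myh7 (-6.01) and Myl2 (-5.73) lie farthest from 0, while on the right no gene is called and 5 genes under the filter have no point.

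Each growth class was also set against the same 3 controls, so that these contrasts share their reference. In slow PNs, 6 of the 47 genes were called lower and none higher (7.13% and 4.12% of 15714 genes), with a median log2 fold change of -2.41, and every slow PN was below every control for 27 genes (12.3% of all genes). The 6 genes were Myh7, Myl2, Myl3, Tnnt1, Tnni1 and Tnnc1, the slow-fiber isoforms described above. Of these, Myh7, Myl2, Myl3, Tnnt1 and Tnnc1 passed the filter on low counts through the controls, where they were high. The filter thus favored these calls, and nothing is read from them. The count was 10 without DRG3, 10 with all 14 libraries in the fit and 17 in DESeq2. In fast PNs, 41 of the 47 genes were called lower and none higher (16.7% and 14.8% of 16037 genes), with a median of -3.90, and every fast PN was below every control for 39 genes (15.2% of all genes). Without DRG5 the count was 22, and with 1 library left out the median lay between -5.317 and -3.249. Among the 41, Myh3, Myh7, Myl3, Tnnt1, Tnnc1 and Trim63 passed the filter on low counts through the controls. For Myh7 the log2 fold change was -7.10 (SE 0.99) in slow PNs and -5.59 (SE 1.35) in fast PNs. For Myh1 it was -1.78 (SE 1.53) in slow PNs and -4.00 (SE 0.99) in fast PNs, and for Casq2 it was -0.37 (SE 0.73) and 0.88 (SE 0.42).

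Fast and slow PNs were then compared directly, the contrast that bears on tumor growth. None of the 42 genes tested was called in edgeR (0.466% of 15465 genes were called lower and 0.802% higher), 3 had an unadjusted p under 0.05, and DESeq2 and limma voom also called none. The median log2 fold change was -1.41 (-2.78 without fast PN 1071 and -0.88 without slow PN 1202), and 37 of the 42 were below 0. The smallest values were -2.18 (SE 1.38) for Myh1, -1.97 (SE 1.28) for Ckm and -1.97 (SE 0.82) for Pvalb, and the largest were 1.34 (SE 0.96) for Myl2, 1.26 (SE 0.56) for Casq2 and 0.54 (SE 0.24) for Tpm3. Levels varied widely within each class: Myh1 ranged from 1.25 to 699 CPM among slow PNs and from 5.03 to 249 CPM among fast PNs. Without fast PN 1071, 30 of 39 genes tested had an unadjusted p under 0.05, and none was called.

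Further skeletal muscle genes outside the 47 were read from a list of 35. The list was chosen with earlier results of these data known and covers the same tissue in the same libraries. Its counts of calls are therefore a description and give no separate support. Of the 33 that passed the filter, 28 fell and none rose in PNs against controls (edgeR, Benjamini-Hochberg adjusted p under 0.05, against 13.4% lower and 12.9% higher over all genes), with a median log2 fold change of -3.06. Among the 28, Klhl40, Jsrp1, Cacng1, Sgca, Cav3, Lmod3, Rpl3l, Mstn and Actc1 did not pass the filter between fast and slow PNs. Cav3, at most 0.608 CPM in PNs, passed it here through the controls, where it was high. Cox6a2, a muscle subunit of cytochrome oxidase, fell by 4.39 on the log2 scale (SE 0.97, adjusted p = 0.00441 in edgeR). The list gave 4 calls without DRG5 and 14 without DRG4. Between fast and slow PNs it gave none of 24 tested in edgeR, DESeq2 or limma voom, with 2 at an unadjusted p under 0.05. Its summed level ran with the 47 genes across libraries, with 1102 to 4683 CPM in controls, 1056 CPM in slow PN 1079, 1101 CPM in 1202, 881 CPM in fast PN 1071, 403 CPM in slow PN 1203 and 38.1 to 136 CPM in the other 7 PNs. Of the myogenic regulators, Pax7, Myf5 and Myog, which mark satellite cells and their progeny, were at most at 0.844 CPM in any library and were not tested. Myod1, the myoblast determination factor, was at 1.04, 1.11 and 2.01 CPM in controls and at most 0.304 CPM in PNs, and it passed the filter on low counts through the controls alone. Cdh15, the cadherin of satellite cells, was at 4.66, 2.22 and 2.53 CPM in controls and at most 4.57 CPM in PNs, and was not called. Myf6, the regulator of mature fibers, was at 1.04, 5.82 and 8.87 CPM in controls and at most 1.75 CPM in PNs. Of the junction genes, Chrna1, the alpha subunit of the muscle acetylcholine receptor, fell by 1.71 on the log2 scale (SE 0.22, adjusted p = 8.13e-05 in edgeR), and the other 4 tested were not called.

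Other tissues moved with the same contrast. All 9 brown fat genes fell in PNs against controls in edgeR, and their sum was 1541 to 2281 CPM in controls, 77.3 to 528 CPM in slow PNs and 73.4 to 195 CPM in fast PNs. Of the 9, 7 passed the filter between fast and slow PNs, and Elovl3 and Cpt1b did not. Cpt1b, with 11 to 26 counts in controls and 0 to 5 in PNs, passed it here through the controls. The adipocyte sum was 2738 to 4054 CPM in controls, and 1 of its 9 genes, Lipe, was called lower in PNs, while all 9 were called lower in fast PNs against controls. Lep, at most 6 counts in fast PNs, passed the filter there through the controls. Of 12 smooth muscle and pericyte genes, 5 were called lower in PNs and 10 in fast PNs, and of 8 Schwann cell genes 3 were called higher in PNs. Over all genes tested, 13.4% were called lower and 12.9% higher in PNs against controls, and 16.7% lower in fast PNs. Nothing is read from the counts of these short lists. Among PNs, the adipocyte sum did not have the order of the muscle genes. It was 3028 CPM in slow PN 1206 and 1491 CPM in 1198A, the slow PNs lowest in muscle RNA, and 13.96 CPM in 1203, 45.6 CPM in 1071 and 207 CPM in 1079, while 1202 was the second highest PN in both (1642 CPM) and the other fast PNs, low in muscle RNA, were at 16.5 to 267 CPM. The sensory neuron sum was 5487, 2559 and 1485 CPM in DRG3, DRG4 and DRG5, in the opposite order to their muscle RNA, and among PNs it was highest in 1203 (12749 CPM), 1202 (7586 CPM) and 1071 (7236 CPM). The heart genes in DRG5 touch the slow list directly, because Myh7, Myl2, Myl3, Tnnc1, Myoz2, Casq2 and Atp2a2 are among the genes that slow muscle shares with heart. Of the 9 cardiac genes, Myl4 was lower in every PN (at most 1.10 CPM) than in every control (1.64 to 28.8 CPM) and was called lower. Tnnt2 and Nppa were also called lower but overlapped: without DRG5, the controls were at 1.20 to 4.75 CPM of Tnnt2 and 0.518 to 0.831 CPM of Nppa, and PNs reached 1.25 and 1.64 CPM. Nppb was called higher (at most 0.317 CPM in controls and up to 4.93 CPM in slow PN 1203), and Ryr2 was not called. The cardiac sum was 87.1, 54.2 and 162 CPM in DRG3, DRG4 and DRG5 and 13.7 to 158 CPM in PNs, and in 1203, the highest PN, Ryr2 made up 144 CPM of it. The part of heart, fat, neuron and dissection differences in these contrasts was not tested.

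**Figure D5:**
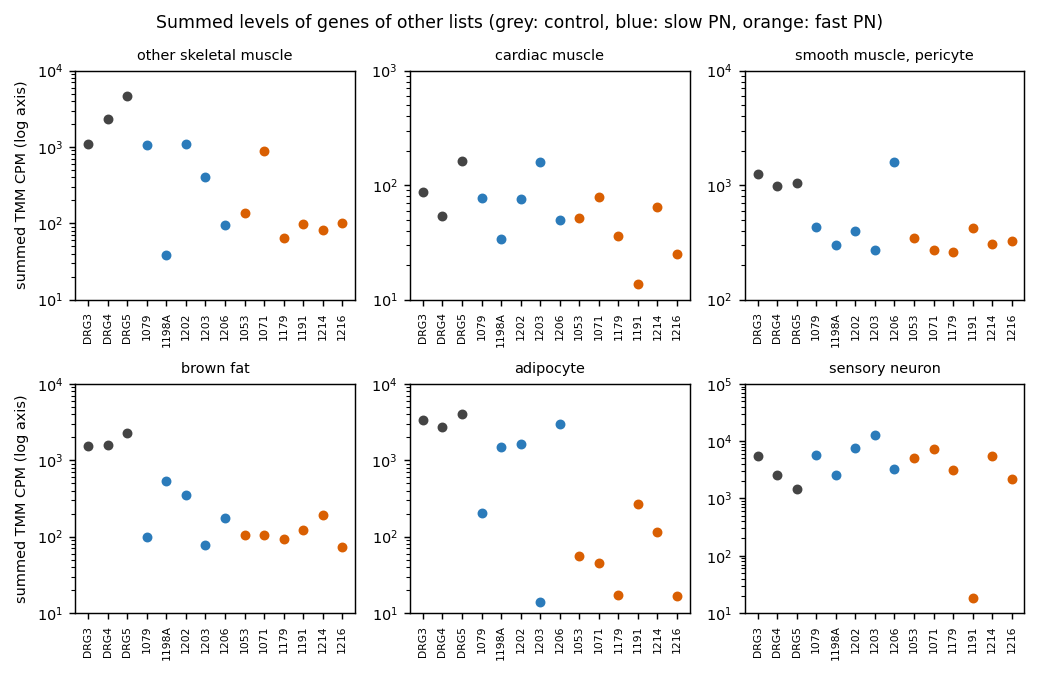
Summed TMM CPM (log axes, whole decades) of 6 lists of genes outside the 47 in each library: other skeletal muscle, cardiac muscle, smooth muscle and pericyte, brown fat, adipocyte and sensory neuron. Slow PN 1206 stands with the controls in smooth muscle (1600 CPM) and adipocyte genes (3028 CPM), and fast PN 1191 stands alone at 18.1 CPM in sensory neuron genes.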

How the data were processed

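RNA of frozen PNs and of control tissue was amplified by the Ovation kit for RNA-Seq (v2). The authors aligned reads to mm10 with TopHat (version 2.0.9 in the submitters' processing notes) and counted them per gene with featureCounts 1.5.2. The deposited table holds whole-number counts per gene, not normalized, and the annotation and strand setting are not given in the sources used here. A deposited table of log2 TMM values was not used.

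From the counts, edgeR 4.0.16 in R 4.3.3 was run with filterByExpr, TMM factors and the quasi-likelihood test, with a Benjamini-Hochberg adjusted p under 0.05 over all genes tested. Each comparison used only its own libraries, and the script was tested on simulated data. Alternatives were RLE size factors, no filter, DESeq2 1.42.0, limma voom 3.58.1, all 14 libraries in 1 fit and each library left out in turn. The labels do not say whether libraries of a group came from separate litters or days, so that p-values measure the spread between these samples. Pearson's r of log2 CPM across genes between libraries of a group was 0.824 to 0.977, and no library repeated another. CPM per kb used the longest GENCODE M21 transcript, and exon overlaps were read from the same annotation. Of the genes of the other lists, 2 (Mymk and Mymx) were not in the count table.

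The members and lists were chosen with earlier results of these data known. The genes named were, per role, the 2 with the highest mean CPM per kb, the isoform pairs with both means at 1 CPM or more, and the 3 largest and 3 smallest log2 fold changes in PNs against controls and in fast against slow PNs. Any further gene was named after its values were seen, to account for every member.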

Additional observations from a re-analysis of the deposited data

Results flagged for a closer look

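A library was set apart where its gap to the nearest other library of its group, divided by the range of the group, exceeded Dixon's 95% value, in 94 tests over the slow and fast PNs. Chance alone sets apart about 1 in 20 groups where values are normally distributed, and the measures below are not independent of each other. Levels were tested as CPM without a log scale, and many were skewed toward high values. The rate of high values set apart by chance is therefore not known here.

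Fast PN 1071 stood above the other 5 fast PNs in 28 measures. Its fast-fiber myosins and light chains were at 249.1 CPM (Myh1), 423.0 CPM (Myh4), 188.3 CPM (Mylpf) and 111.8 CPM (Myl1). Its fast troponin subunits were at 214.8 CPM (Tnnt3), 41.56 CPM (Tnni2) and 82.23 CPM (Tnnc2). Its other fast-fiber genes were at 63.39 CPM (Actn3), 82.71 CPM (Mybpc2), 346.8 CPM (Atp2a1), 40.74 CPM (Casq1), 48.29 CPM (Pvalb) and 17.14 CPM (Myoz1). From the slow list it stood apart in Myoz2 (6.394 CPM) and Mybpc1 (70.33 CPM). Its filament genes were at 320.4 CPM (Acta1), 39.79 CPM (Actn2), 466.9 CPM (Tpm1), 5704 CPM (Ttn) and 42.85 CPM (Myom1), and its triad genes at 83.52 CPM (Ryr1) and 18.84 CPM (Cacna1s). Its energy genes were at 88.56 CPM (Ckm), 55.57 CPM (Mb) and 102.7 CPM (Eno3), and Trim63 was at 2.04 CPM. The 47 genes took 1.103% of its counts, and the other skeletal muscle genes summed to 881.3 CPM.

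Fast PN 1216 stood apart in the slow-fiber genes Myh7 (6.914 CPM), Myl3 (1.678 CPM) and Tnnt1 (3.625 CPM), and its log2 ratio of the fast sum to the sum of 8 slow genes was the lowest of the fast PNs (1.04). Slow PN 1079 stood apart in Myl3 (1.519 CPM). Slow PN 1206 stood apart in the smooth muscle and pericyte sum (1600 CPM).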

How the results depend on the processing

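The number of members called lower in PNs against controls was 28, and it lay between 8 (without DRG5) and 37 (without 1079 or without 1202) when 1 library was left out and between 27 and 38 under the other alternatives. For the other skeletal muscle genes it was 28, with 4 to 30 when 1 library was left out. In slow PNs against controls the count was 6, with 17 in DESeq2, 10 with all 14 libraries in the fit, and 4 to 10 when 1 library was left out. In fast PNs against controls it was 41, with 22 to 43 when 1 library was left out. In fast against slow PNs no member was called under any alternative run, and of the other skeletal muscle genes 0 to 1 was called, the 1 without fast PN 1071. The median log2 fold change of the members kept its sign in all 4 comparisons under every alternative run, with -2.775 (without 1071) to -0.8848 (without 1202) in fast against slow PNs. With 1 library left out, it lay between -3.431 and -2.424 in PNs against controls. For slow PNs against controls it lay between -2.989 and -1.871, and for fast PNs between -5.317 and -3.249. The log2 ratio of the fast to the slow sum lay between 0.2752 and 1.776 in slow PNs and between -1.03 and -0.00325 in fast PNs when 1 library was left out.

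The log2 ratio of the fast sum to the slow sum was 3.69 in controls, and 3.035 as a difference of mean log2 levels, 2.86 without length scaling and 4.577 without Tpm3, Atp2a2 and Casq2. Without these 3 genes, left out after the data were seen, it was 5.006 in slow PNs and 3.933 in fast PNs. The sign of the PN means depended on the measure. Without length scaling the ratio was -0.2085 in slow PNs and -1.291 in fast PNs. As a difference of mean log2 levels it was 2.125 in slow PNs and 0.8215 in fast PNs. Fold changes were recomputed for the members named by the rule, and among these the signs that changed were of uncalled members. With 1 library left out, Atp2a2 lay between -0.2474 and 0.1248 in PNs and between -0.1163 and 0.2448 in slow PNs against controls (also -0.05927 without 1203), Casq2 between -0.9637 and 0.01911 in slow PNs against controls, and Tpm3 between -0.3779 and 0.2039 in fast PNs against controls. In fast against slow PNs, with 1 library left out, Tnni1 lay between -0.1227 and 0.7419, Myoz2 between -0.2114 and 1.022, and Actn2 between -1.466 and 0.2039 (0.143 without 1202). With limma voom, Tnnc2 was at 0.1914 and Mybpc1 at 0.6002. The cause of these changes was not tested. No paired analysis was possible because the groups share no replicate numbers.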
